A study of Mus musculus with 262 samples.

Results

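The glycolysis, gluconeogenesis and pyruvate control genes described here are 35 genes taken by symbol from a list of enzymes, by a rule that uses no measured value but was written with earlier results of these data known, among the 47069 genes of the TPM tables. Every symbol was found once in each deposited table. The genes comprised 3 hexokinases, 7 genes of upper and 9 of lower glycolysis, 2 lactate dehydrogenases, 6 gluconeogenesis genes, 4 enzymes that make or break down fructose 2,6-bisphosphate, and 4 kinases of the pyruvate dehydrogenase complex. RNA was sequenced from kidneys of male mice aged 2 months in 262 samples, in a study of the cell types of the renal collecting duct. C57BL/6 mice gave 235 single cells, sorted on the lectins DBA or PNA, on c-Kit, or on DBA together with c-Kit, and captured on a microfluidic chip. The submitters named them as intercalated cells of type A (87) or type B (23), principal cells (74), cells of the proximal tubule (19) and non-epithelial cells (32). The same strain gave 2 bulk samples sorted on c-Kit, 2 sorted on DBA, and single tubules dissected by hand, of which 11 were cortical collecting ducts (CCD) and 8 were thick ascending limbs of the cortex (cTAL). Kidneys of the Atp6v1b1GFP strain, whose name joins the gene of an intercalated cell proton pump subunit to GFP, gave 2 samples of GFP-positive and 2 of GFP-negative cells. No animal was named for a cell or a sorted sample, so p-values measure the spread between samples, which may be technical.

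Glycolysis splits glucose into pyruvate, which lactate dehydrogenase exchanges with lactate and which the pyruvate dehydrogenase complex commits to the mitochondrion. Gluconeogenesis runs the reversible steps backwards and bypasses the irreversible ones with its own enzymes. In the kidney it is known as a task of the proximal tubule, which takes up lactate and releases glucose, whereas the distal segments are known to use glucose.

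Levels in cells, c-Kit and DBA samples and tubules were in TPM, a share of all transcripts of a sample that is scaled by transcript length and keeps no depth, so their depth is unknown. The GFP samples had between 35530885 and 40815091 reads in genes. They are given in CPM, which are not scaled by length. CPM are reads relative to the library's reads in genes multiplied by its TMM factor, a normalization factor between libraries. These factors ran from 0.8979 to 1.0478. Genes that reached 1 TPM numbered 1092 to 4307 per cell and 7621 to 14004 per tubule, the fewest in the CCD of m2 (m and a number mark tubules in the column headers, with no further explanation). Labels were checked against marker lists. In single cells each type had its own markers, but principal cell markers were also present in other types: Aqp2 averaged 2142 TPM in principal, 486 TPM in proximal tubule and 183 TPM in non-epithelial cells. Leukocyte markers summed to at least 1 TPM in 70 of the 87 type A cells. Thick ascending limb markers reached a sum of 17878.5 TPM in a type A cell and were not part of the next count. Markers of another of the 5 types exceeded a cell's own in 15 cells. Of these, 8 were among the 19 proximal tubule cells and 7 among the 87 type A cells. Without them principal cells had the highest mean for 16 of the 35 genes, and values of the 11 remaining proximal tubule cells are given where a mean printed for that type moved by over 1.5 times. All 6 principal cell markers were higher in the CCD, and all 4 thick ascending limb markers were higher in the cTAL. All 10 intercalated, type A and type B markers were higher in GFP-positive than in GFP-negative and in c-Kit than in DBA samples. Both sorts were mixtures: the 5 leukocyte markers summed to 4610 to 4721 TPM in the c-Kit and 12869 to 13492 TPM in the DBA samples. The 4 thick ascending limb markers summed to 9815 to 14693 CPM in the GFP-positive and 8259 to 8566 CPM in the GFP-negative samples. All 6 principal cell and the 2 distal convoluted tubule markers were also higher in GFP-positive than in GFP-negative samples. In such samples fewer cells of a type and less RNA per cell cannot be told apart.

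Across single cells some genes were found in nearly all cells, and some had a far higher mean in 1 cell type. Others, such as Hk1 and Pdk2, were found in part of the cells of several types. Ldhb was at a TPM of at least 1 in every one of the 235 cells, and Aldoa, Gapdh and Eno1 in at least 90.6% of the cells of each type. The gluconeogenesis genes Fbp1, Pck1, G6pc, Fbp2 and Pcx had their highest mean in proximal tubule cells, and Hk2 and Hk3 in non-epithelial cells. Principal cells had the highest mean for 16 of the 35 genes, proximal tubule cells for 7, type B cells for 5, type A cells for 4 and non-epithelial cells for 3. Among all 15403 genes whose mean reached 1 TPM in some type, principal cells had the highest mean for 25.3%. Ranked by the median over cells principal cells led for 7 of the 35 genes, and ranked by the share of cells with the gene for 8. Each type was treated as 1 sample, so no difference between types was tested, and the intervals below (exact Clopper-Pearson, 95%) cover counting error only.

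**Figure D1:**
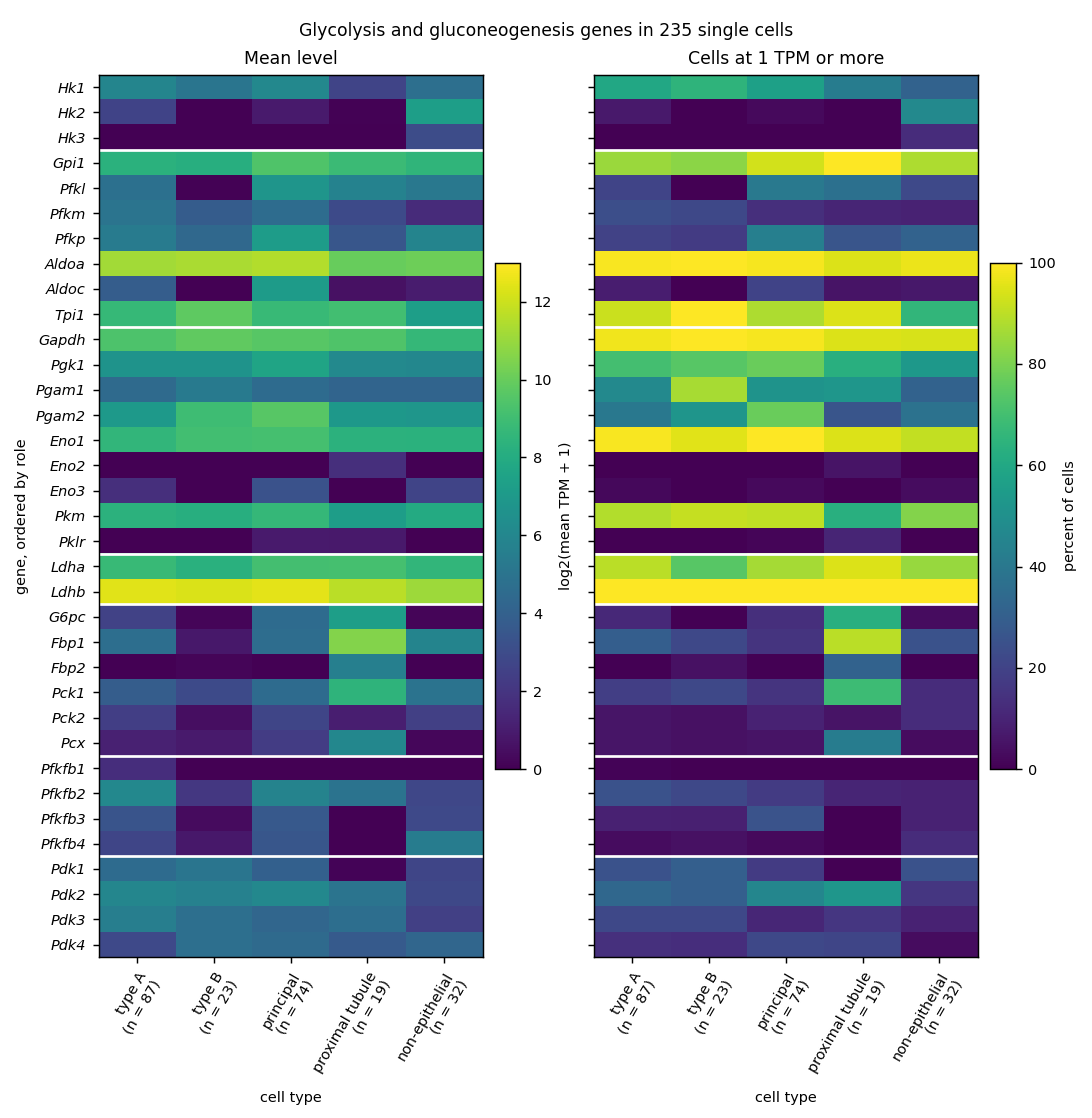
Level of the 35 genes in the 5 cell types. Rows are genes, separated by white lines into hexokinases, upper glycolysis, lower glycolysis, lactate dehydrogenases, gluconeogenesis, fructose 2,6-bisphosphate enzymes and pyruvate dehydrogenase kinases; columns are cell types with their number of cells. Colour gives log2(mean TPM + 1) on the left and the percent of cells at 1 TPM or more on the right. Ldhb was detected in 100% of cells of each type, and Fbp1 in 89.5% of proximal tubule cells against 14.9% to 29.9% of the cells of other types.

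Hexokinases trap glucose in the cell as glucose 6-phosphate. Hk1, the widespread form, had a mean of 66.5 TPM in principal cells, 58.4 TPM in type A and 31.7 TPM for type B, against 26.0 TPM in non-epithelial and 5.41 TPM in proximal tubule cells (1.97 TPM without the 8 cells). Of the type A cells 52 of 87 had it (59.8%, interval 48.7% to 70.1%) and 8 of 19 proximal tubule cells (42.1%, interval 20.3% to 66.5%), so the shares of these types overlapped within counting error. Hk2, the inducible form, averaged 154 TPM in non-epithelial cells and at most 5.11 TPM elsewhere. The cells with Hk2 were 15 of 32 non-epithelial (46.9%, interval 29.1% to 65.3%), 6 of 87 type A (6.90%, interval 2.57% to 14.4%) and 2 of 74 principal cells. One cell carried 96.9% of the summed Hk2 of the type A cells. Hk3, a hexokinase known from leukocytes, was found in 4 of 32 non-epithelial cells, at a mean of 7.10 TPM. No cell of the other types had it at 1 TPM, which allows a share of up to 3.45% of type A and 4.05% of principal cells.

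Upper glycolysis turns glucose 6-phosphate into triose phosphates, with phosphofructokinase as its controlled step. Gpi1, glucose phosphate isomerase, averaged 679 TPM in principal cells and was detected in 82.6% to 100% of the cells of each type. The phosphofructokinase genes were each found in a minority of cells. Pfkl, the liver form, was at 1 TPM in 30 of 74 principal cells (40.5%, interval 29.3% to 52.6%) and 18 of 87 type A cells (20.7%, interval 12.7% to 30.7%). None of the 23 type B cells had it, which allows a share of up to 13.0%. Pfkp, the platelet form, also had its highest mean in principal cells, at 145 TPM against 57.8 TPM in the next type. Pfkm, the muscle form, was instead highest in type A cells, at 31.6 TPM against 23.2 TPM in principal cells, where 21 of 87 and 10 of 74 cells had it. Aldoa, the general aldolase, had means of 2923 TPM in principal cells, 2577 TPM in type B and 2309 TPM in type A. Aldoc, its brain form, averaged 138 TPM in principal cells and at most 13.3 TPM elsewhere, yet only 15 of 74 principal cells had it (20.3%, interval 11.8% to 31.2%). Tpi1, triose phosphate isomerase, was highest in type B cells, at 879 TPM and in 23 of 23 cells.

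Lower glycolysis yields ATP and pyruvate. Gapdh was at a mean of 909.7 TPM for type B and 791 TPM for principal cells, and Pgk1, phosphoglycerate kinase, 189 TPM in principal and 99.8 TPM in type A cells. Pgam2, the form of phosphoglycerate mutase known from muscle, averaged 790.0 TPM in principal cells and 493 TPM in type B, whereas its mean was 124 TPM for type A and 120.0 TPM for proximal tubule cells. The cells with Pgam2 were 57 of 74 principal cells (77.0%, interval 65.8% to 86.0%) and 5 of 19 proximal tubule cells (26.3%, interval 9.15% to 51.2%). In the 11 proximal tubule cells whose own markers led, Pgam2 was at 1.03 TPM and in 2 cells. Pgam1, the general form, averaged 16.9 to 39.4 TPM in the 5 types (5.83 TPM in those 11 cells) and was most frequent in type B cells, 20 of 23. Eno1, the general enolase, averaged 583 TPM in principal cells, whereas Eno2, the neuronal form, was found in 1 cell of 235, a proximal tubule cell led by markers of another type, and Eno3, the muscle form, in 5. Pkm, the pyruvate kinase of most tissues, was detected in 63.2% of proximal tubule cells (5 of those 11 cells) and 81.2% to 91.3% of the cells of other types. Pklr, the pyruvate kinase of liver and red cells, was found in 3 cells, of which 2 were proximal tubule cells.

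Lactate dehydrogenase is built from the products of Ldha and Ldhb. Ldhb, which codes for the heart subunit, averaged 5563 TPM in principal cells, 5465 TPM for type A, 4981 TPM for type B, 3169 TPM in proximal tubule and 2215 TPM in non-epithelial cells. Ldha, which codes for the muscle subunit, averaged 573 TPM in proximal tubule, 553 TPM in principal, 427 TPM in type A, 371 TPM in non-epithelial and 304 TPM in type B cells. In the 11 proximal tubule cells whose own markers led its mean was 529.5 TPM, below that of principal cells.

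Gluconeogenesis genes set the proximal tubule cells apart. Fbp1, the fructose bisphosphatase of liver and kidney, averaged 1523 TPM there and at most 57.0 TPM in another type. Pck1, the cytosolic carboxykinase that starts the route from oxaloacetate, averaged 347 TPM and was found in 13 of 19 proximal tubule cells (68.4%, interval 43.4% to 87.4%). G6pc, which releases free glucose, averaged 156 TPM and was found in 12 of 19 (63.2%, interval 38.4% to 83.7%). Pcx, which makes oxaloacetate from pyruvate, averaged 63.8 TPM over all 19 cells and was found in 8 of them, and Fbp2, the muscle form of fructose bisphosphatase, averaged 47.9 TPM and was found in 6. In the 11 proximal tubule cells whose own markers led, the means were 2384 TPM for Fbp1, 484 TPM for Pck1, 167 TPM for G6pc, 51.6 TPM for Pcx and 63.7 TPM for Fbp2, again the highest of the 5 types. Pck2, the mitochondrial carboxykinase, did not share this pattern: it averaged 5.59 TPM in principal cells and was found in 1 of 19 proximal tubule cells. Pck1, Fbp1 and G6pc were detected together in 9 of 19 proximal tubule cells, 4 of 87 type A, 1 of 74 principal and none of the 23 type B and 32 non-epithelial cells. At least 1 of Pck1, Fbp1, G6pc and Pcx was found in 18 of 19 proximal tubule, 39 of 87 type A, 29 of 74 principal, 8 of 23 type B and 12 of 32 non-epithelial cells, so single members were frequent outside the proximal tubule. Fbp1 was at 1 TPM in 26 of 87 type A cells, but reached 100 TPM in 5 of these 87 cells against 15 of 19 proximal tubule cells. The phosphate carrier Slc34a1, a proximal tubule marker, was detected in 12 of the 26 type A cells with Fbp1 and in 17 of the 61 without it.

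The 250 bases before the RefSeq transcription start (build GRCm38.p6, first start listed for each gene) are shown for Pck1 and G6pc, chosen because, of the 35 genes, theirs held the motif marked in capitals. Capitals mark GTTAAT or its reverse complement ATTAAC, a 6-letter piece of the site of HNF1, a transcription factor of the proximal tubule. The windows are chr2:173152823-173153072 on the plus strand for Pck1 and chr11:101367466-101367715 on the plus strand for G6pc.
Pck1: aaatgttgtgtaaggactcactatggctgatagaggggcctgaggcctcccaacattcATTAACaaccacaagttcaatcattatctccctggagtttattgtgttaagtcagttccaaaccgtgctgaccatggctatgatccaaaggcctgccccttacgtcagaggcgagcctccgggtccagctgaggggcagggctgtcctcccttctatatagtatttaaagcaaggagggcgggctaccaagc
G6pc: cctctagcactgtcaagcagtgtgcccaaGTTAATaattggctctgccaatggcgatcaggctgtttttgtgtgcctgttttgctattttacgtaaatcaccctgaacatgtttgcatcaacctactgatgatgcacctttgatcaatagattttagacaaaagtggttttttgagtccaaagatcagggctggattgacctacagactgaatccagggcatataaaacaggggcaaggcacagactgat
The windows of Fbp1, Fbp2 and Pcx, which had larger log2 differences between proximal tubule cells and the next type than Pck1 and G6pc, did not hold it. The motif was in the window of 2 of the 35 genes on either strand and in 6.43% of all 32851 windows of the same length. G6pc was also 1 of 2 genes of the set, with Eno2, whose window held TATAAA on either strand, found in 12.4% of all windows. A match is a description of the sequence, not a bound site.

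Fructose 2,6-bisphosphate is the main activator of phosphofructokinase, and the Pfkfb enzymes set its level. Pfkfb2, the heart form, was at a mean of 67.1 TPM for type A and 55.1 TPM for principal cells, where 22 of 87 and 13 of 74 cells had it, and 30.1 TPM in proximal tubule cells, but 0.052 TPM in the 11 of these whose own markers led. Pfkfb3, the form known for its high kinase activity, was found in 19 of 74 principal cells (25.7%, interval 16.2% to 37.2%), 8 of 87 type A cells (9.20%, interval 4.05% to 17.3%) and none of 19 proximal tubule cells, which allows a share of up to 15.8%. Pfkfb4, the testis form, averaged 42.9 TPM in non-epithelial cells, where 4 of 32 had it, and Pfkfb1, the liver form, was found in 1 type A cell. The pyruvate dehydrogenase kinases switch off the pyruvate dehydrogenase complex. Pdk1 had means of 32.7 TPM for type B, 22.2 TPM for type A and 14.9 TPM in principal cells and was in 0 of 19 proximal tubule cells. Pdk2 averaged 65.8 TPM in principal and 61.9 TPM in type A cells, and Pdk3 45.8 TPM in type A cells against 25.8 TPM in those of type B. Pdk4, the form known to rise in fasting, had its highest mean in type B cells, 26.3 TPM, with 21.4 TPM in principal cells. Only 3 of 23 type B cells had it, against 16 of 74 principal cells.

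In the microdissected tubules, 8 of the 30 genes tested were higher in the CCD and 1 was lower, by limma on log2(TPM + 1) with a Benjamini-Hochberg adjusted p under 0.05. Among all 13520 genes tested, 13.2% were higher and 5.50% were lower. The higher genes were Aldoa, Tpi1, Gapdh, Pgam2, Eno1, Ldha, Ldhb and Pfkfb3, and Pdk4 was lower. The median log2 difference of the 30 genes was 0.12, and that of all genes tested was 0.31. Quantile normalization moved the median of all genes to -0.03 and the calls over all genes from 1782 higher and 744 lower to 1221 and 1244. Under it 7 of the set were higher and 2 lower, with Eno1 lost (log2 difference 0.22, adjusted p = 0.135) and Pdk1 gained as lower (adjusted p = 0.0192). Hk2, Hk3, Eno2, Pklr and Pfkfb1 averaged under 1 TPM and were not tested.

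Ldha (ENSMUSG00000063229, GRCm38 chr7:46841475-46855627, plus strand) ranged from 1271 to 1975 TPM in the 11 CCD, with a median of 1646. In the 8 cTAL it ranged from 409.7 to 587 TPM, with a median of 484. The lowest CCD was above the highest cTAL, so the groups did not overlap. Ldha rose 3.19-fold (log2 difference 1.67, SE 0.10, limma adjusted p = 1.67e-11). Its partner Ldhb (chr6:142490249-142507957, minus strand) ranged from 6037 to 7463 TPM in the CCD and from 5272 to 6542 TPM in the cTAL, and the groups overlapped. The rise of Ldhb was 1.15-fold (log2 difference 0.20, SE 0.05, adjusted p = 0.00470), which is below the median of all genes. Quantile normalization gave 0.63, and a fit without a variance trend gave an adjusted p of 0.412.

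Pfkfb3 (chr2:11471433-11554077, minus strand) ranged from 19.9 to 101 TPM in the CCD, with a median of 34.4. In the cTAL it ranged from 0.01 to 9.31 TPM, with a median of 1.12. No cTAL reached the lowest CCD, and the highest CCD was that of m2. The log2 difference was 3.96 (SE 0.45, limma adjusted p = 3.58e-07), and the alternatives gave values between 2.55 and 5.38. Pgam2 (chr11:5801640-5803733, minus strand) ranged from 533 to 1284 TPM in the CCD and from 1.87 to 615 TPM in the cTAL. The groups overlapped through 1 cTAL, that of m2 at 615 TPM, and the cTAL of m3 held the 1.87 TPM. Pgam2 rose by a log2 difference of 2.95 (SE 0.61, adjusted p = 0.00105), which was 3.32 without the cTAL of m2 and 2.21 without that of m3. The ratio of the mean TPM was 4.31, as the log scale gives more weight to the lowest cTAL.

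**Figure D2:**
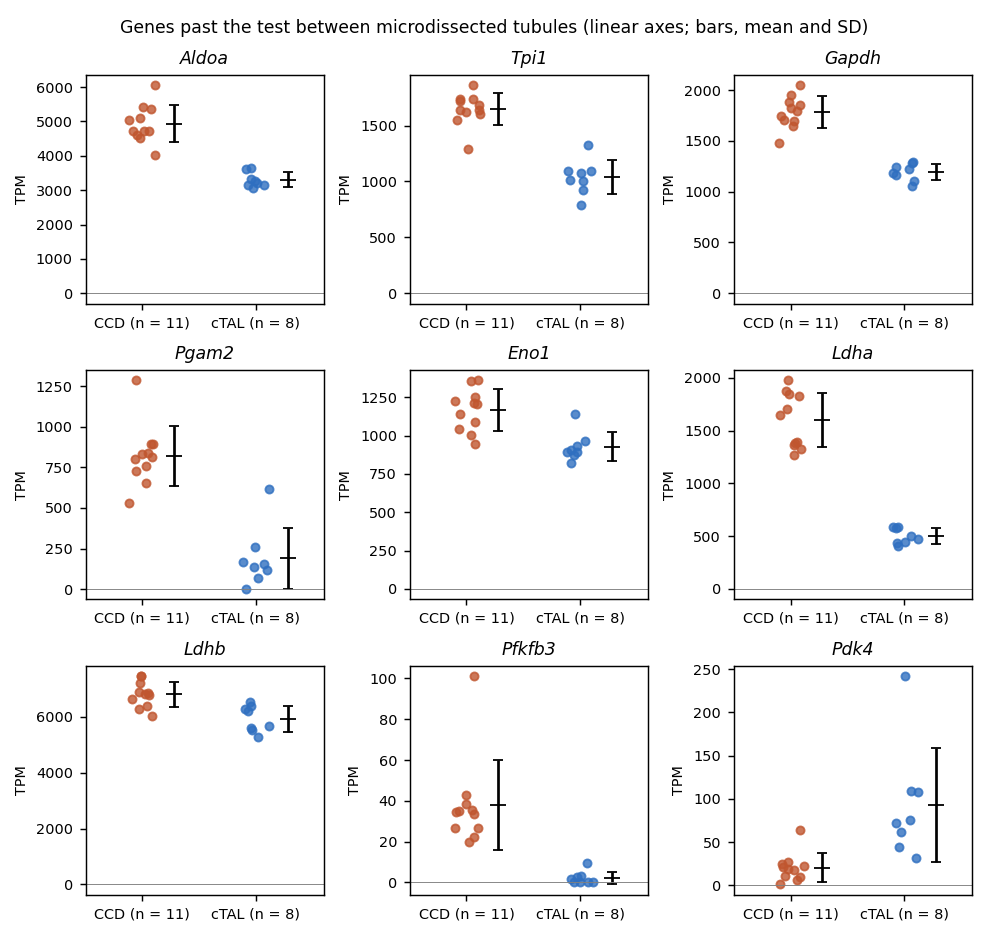
TPM of the 9 genes past the test in single tubules, on linear axes that include 0. Each point is a tubule, and bars give the mean and SD of 11 CCD and 8 cTAL. The CCD points lie above all cTAL points for Aldoa, Gapdh, Ldha and Pfkfb3, and overlap with them for the other 5 genes.

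The remaining rises were smaller. Aldoa ranged from 4029 to 6061 TPM in the CCD and from 3056 to 3634 TPM in the cTAL, with no overlap. Gapdh (chr6:125161715-125166467, minus strand) ranged from 1479 to 2050.1 TPM against 1059 to 1289 TPM, again with no overlap. Both rose 1.49-fold, with limma adjusted p-values of 1.68e-07 and 3.01e-07. Tpi1 (chr6:124810586-124814296, minus strand) ranged from 1294 to 1863 TPM against 793.5 to 1324 TPM, so 1 CCD fell within the cTAL range. It rose 1.59-fold (log2 difference 0.67, SE 0.08, adjusted p = 1.61e-06). Eno1 ranged from 943 to 1360.4 TPM against 823 to 1144 TPM, and its rise of 1.25-fold (log2 difference 0.33, adjusted p = 0.00584) was about the median of all genes. Aldoa, Tpi1, Gapdh, Pgam2 and Eno1 catalyse steps between fructose bisphosphate and pyruvate, a stretch whose genes Aldoc (log2 difference -0.10), Pgk1 (-0.06), Pgam1 (0.22) and Eno3 (1.21) did not pass the test. Nor did Gpi1, Hk1 (-0.30), Pfkl (-0.09), Pfkm (-1.03), Pfkp (-0.23) and Pkm (0.06). The value of Pfkm was -0.51 without the CCD of m2 and -0.44 with sample weights.

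Pdk4 (chr6:5483351-5496309, minus strand) was the gene of the set that fell. It ranged from 1.30 to 64.2 TPM in the CCD, with a median of 19.0, and from 32.25 to 242 TPM in the cTAL, with a median of 74.4. The groups overlapped through the CCD of m2, which had the 64.2 TPM. Pdk4 fell by 2.28 on the log2 scale (SE 0.49, limma adjusted p = 0.00149), and by 2.05 without the cTAL of m2, which had the 242 TPM. Pdk1 had a log2 difference of -1.02 that did not pass the test (adjusted p = 0.156), Pdk2 -0.30 and Pdk3 -0.44.

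The 250 bases before the RefSeq start are shown for the pair Ldha and Ldhb and for Pfkfb3 and Pgam2, the genes with the 3 largest rises in the CCD and the sister of 1 of them. Capitals mark ACGTG or GCGTG or their reverse complements CACGT and CACGC, the 5-letter core that hypoxia-inducible factors bind. The windows are chr7:46845554-46845803 on the plus strand for Ldha, chr6:142507958-142508207 for Ldhb, chr2:11553930-11554179 for Pfkfb3 and chr11:5803797-5804046 for Pgam2, each of these 3 on the minus strand. RefSeq lists a further start for Ldha and for Pfkfb3, which is not shown.
Ldha: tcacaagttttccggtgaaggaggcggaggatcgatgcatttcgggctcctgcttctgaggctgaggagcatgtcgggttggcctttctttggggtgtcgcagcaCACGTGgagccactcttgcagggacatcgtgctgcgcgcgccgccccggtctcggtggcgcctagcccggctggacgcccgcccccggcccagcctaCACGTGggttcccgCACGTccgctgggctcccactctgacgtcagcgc
Ldhb: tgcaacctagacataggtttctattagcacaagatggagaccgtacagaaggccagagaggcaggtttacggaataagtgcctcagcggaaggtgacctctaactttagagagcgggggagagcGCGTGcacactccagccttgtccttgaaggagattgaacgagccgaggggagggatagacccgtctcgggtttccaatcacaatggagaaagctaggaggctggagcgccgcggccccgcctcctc
Pfkfb3: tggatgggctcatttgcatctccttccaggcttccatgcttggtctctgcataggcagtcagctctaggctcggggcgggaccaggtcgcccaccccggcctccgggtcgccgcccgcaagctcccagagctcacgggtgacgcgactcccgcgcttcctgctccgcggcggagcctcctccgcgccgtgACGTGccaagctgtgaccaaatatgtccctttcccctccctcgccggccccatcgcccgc
Pgam2: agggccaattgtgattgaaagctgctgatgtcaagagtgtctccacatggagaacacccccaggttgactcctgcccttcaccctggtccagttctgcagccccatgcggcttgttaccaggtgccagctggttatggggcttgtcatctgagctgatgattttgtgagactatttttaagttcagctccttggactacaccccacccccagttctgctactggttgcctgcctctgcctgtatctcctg
Ldha held 5 matches, of which 4 come from 2 palindromes CACGTG that are read on both strands. Ldhb and Pfkfb3 held 1 match each, and Pgam2 held none. A match to either core was found in the window of 23 of the 35 genes (65.7%), and in 38.6% of all 32851 windows of the same length. Base composition was not matched between these windows. Of the other genes that rose in the CCD, Gapdh had 2 matches, Eno1 1, and Aldoa and Tpi1 none, while Pdk4 had 1, so a match did not separate the genes that rose. Among the hypoxia factor genes themselves, 2 of 7 tested were higher in the CCD, against 13.2% of all genes tested. These were Hif1a (log2 difference 2.52) and Epas1 (1.49), which code for oxygen-sensitive subunits of hypoxia-inducible factors. The other 5 did not pass the test, and a link to the genes that rose was not tested.

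None of the 6 gluconeogenesis genes passed the test between the tubules, and their median log2 difference was 0.18. Their ranges were wide within each segment and overlapped. Fbp1 ranged from 1.97 to 208 TPM in the CCD and from 0.17 to 173 TPM in the cTAL. Pck1 ranged from 0.05 to 171 TPM and from 0 to 57.0 TPM, and G6pc from 0 to 44.6 TPM and from 0 to 43.7 TPM. Pck2 had a median of 19.9 TPM in the CCD and 16.3 TPM in the cTAL. Levels of 6 proximal tubule markers are given beside these values. The CCD with the highest marker sum, 380.2 TPM, had 424 TPM of Pck1, Fbp1 and G6pc together, and the cTAL with the highest, 217 TPM, had 273 TPM. The CCD with the lowest marker sum, 5.45 TPM, had 13.3 TPM. In the cTAL the marker sums rested largely on Hao2, which ranged there from 46.7 to 129.9 TPM against 0.16 to 24.5 TPM in the CCD, while Cubn was at most 0.64 TPM. The part of proximal tubule RNA in these values was not tested. Without the tubule of highest marker sum in each segment, 8 genes of the set were higher in the CCD and 1 was lower, the counts found with all tubules.

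**Figure D3:**
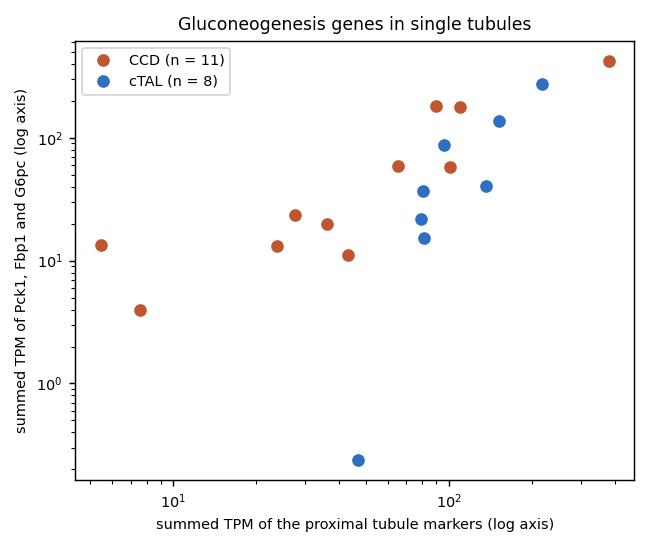
Summed TPM of Pck1, Fbp1 and G6pc against summed TPM of 6 proximal tubule markers (Lrp2, Cubn, Slc34a1, Slc5a12, Slc7a9 and Hao2) in single tubules, both on log axes. Each point is a tubule, 11 CCD in red and 8 cTAL in blue. The CCD at the upper right has 380.2 TPM of markers and 424 TPM of the 3 genes, and the cTAL at the bottom has 46.8 TPM and 0.24 TPM.

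Genes that feed or drain the pathway were counted from lists. Of 6 glucose carriers tested, Slc2a1, the basal glucose carrier, was higher in the CCD (log2 difference 1.51), and Slc5a1, a sodium-glucose cotransporter, was lower (-7.17), as was Slc2a4 (-1.95). Of 6 lactate and pyruvate carriers, Bsg was higher (0.47), and Slc16a7 (-1.75) and the mitochondrial pyruvate carrier subunit Mpc1 (-1.17) were lower. Of 7 genes of the pyruvate dehydrogenase complex and its phosphatases, none was higher, and Pdha1 (-0.95) and Dld (-0.89) were lower. The pentose phosphate genes Tkt (0.66) and Taldo1 (0.45) were higher among 6, and the glycogen phosphorylase Pygl (-2.19) was lower among 10 glycogen genes.

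Between the bulk samples sorted on c-Kit and on DBA, 7 of 34 genes tested were higher in c-Kit and 17 were lower, by limma on log2(TPM + 1). Among all 14341 genes tested, 16.1% were higher and 28.1% lower. The higher genes were Hk1, Pfkm, Aldoa, Eno3, Pkm, Ldhb and Pdk1. The lower genes were Hk3, Pfkl, Pfkp, Aldoc, Gapdh, Pgam2, Eno2, Pklr, Ldha, G6pc, Fbp1, Fbp2, Pck2, Pcx, Pfkfb3, Pfkfb4 and Pdk2. Pfkfb1 averaged under 1 TPM and was not tested. The median log2 difference was -0.25 in the set and -0.11 among all genes. With quantile normalization the median of all genes was 0.02, the calls over all genes changed from 2315 higher and 4033 lower to 3055 and 3072, and those of the set to 8 and 16. With 2 samples a group, 12 of the 24 calls held under every alternative run.

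Lactate dehydrogenases moved in opposite directions. Ldhb measured 5866 and 5753 TPM in the c-Kit samples and 4128 and 3771 TPM in the DBA samples. Ldha measured 1030.2 and 1016 TPM against 1373 and 1349 TPM. Neither gene overlapped between the sorts, and Ldhb rose 1.47-fold (limma adjusted p = 0.00119) while Ldha fell by 0.41 on the log2 scale (adjusted p = 0.00136). The phosphofructokinase genes parted likewise. Pfkm measured 101 and 87.35 TPM in c-Kit against 39.4 and 44.1 TPM in DBA and rose 2.22-fold (adjusted p = 0.000195). Pfkl measured 81.9 and 79.9 TPM against 126 and 111 TPM and fell by 0.54 on the log2 scale (adjusted p = 0.00205). Pfkp fell by 0.34, a call that was lost in 5 of 12 alternatives.

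Aldoc, Pfkfb3 and Pfkfb4 had large differences toward DBA. Aldoc measured 12.7 and 14.8 TPM in c-Kit against 50.4 and 43.1 TPM in DBA, a fall of 1.70 on the log2 scale (SE 0.12, limma adjusted p = 9.18e-05). Pfkfb3 measured 22.7 and 17.0 TPM against 68.1 and 60.25 TPM and fell by 1.66 (SE 0.14, adjusted p = 0.000215). Pfkfb4 measured 6.15 and 7.68 TPM against 20.6 and 20.9 TPM and fell by 1.46 (SE 0.14, adjusted p = 0.000307). Of these, Aldoc and Pfkfb3 had their highest single-cell mean in principal cells, and Pfkfb4 in non-epithelial cells. Principal cells also led Hk1, Aldoa, Eno3, Pkm and Ldhb, which were higher in c-Kit. They led Pfkl, Pfkp, Pklr, Pck2 and Pdk2, which were lower, and Gpi1, Pgk1 and Eno1, which did not pass the test. Pgam2, which principal cells also led, fell by 0.34, from 455 and 411 TPM in DBA to 353 and 331 TPM in c-Kit. Aldoa rose 1.33-fold, Pkm 1.35-fold and Pdk1 1.79-fold, and in each both c-Kit samples were above both DBA samples. Gapdh fell by 0.20, with an adjusted p of 0.0474 that was lost in 9 of 12 alternatives, and Hk1 rose by 0.26, lost in 7 of 12. Tpi1, Eno1, Pgk1, Pgam1 and Gpi1 did not pass the test. Of these, Tpi1, Pgk1, Pgam1 and Gpi1 also had groups that did not overlap. With 2 samples a group, a lack of overlap therefore did not separate the genes that passed.

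Of the 6 gluconeogenesis genes, 5 were lower in c-Kit. Fbp1 measured 601 and 563 TPM in c-Kit against 874 and 857 TPM in DBA and fell by 0.57 on the log2 scale (limma adjusted p = 0.000473). G6pc fell by 0.70, from 209 and 199 TPM in DBA to 133 and 118 TPM in c-Kit, and Fbp2 fell by 1.99, from 34.3 and 33.4 TPM to 6.62 and 9.08 TPM. Pck1 measured 331 and 328 TPM against 334 and 361 TPM and did not pass the test (log2 difference -0.07, adjusted p = 0.370). All 6 proximal tubule markers were lower in c-Kit too, with sums of 1205 to 1330.5 TPM against 2515 to 2599 TPM in DBA. Hk3 fell by 0.89, and the leukocyte markers fell with it, 4 of 5 past the test. The call of Pck2 was lost in 7 of 12 alternatives, that of Pcx in 5 of 12 and that of Hk3 in 5 of 11. The part of proximal tubule cells and leukocytes in these differences was not tested.

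Companion genes of mitochondrial pyruvate use went the other way. Of 7 pyruvate dehydrogenase complex and phosphatase genes, 6 were higher in c-Kit and none lower, among them Pdhb (1.25), Pdp1 (1.17) and Pdhx (1.08) on the log2 scale. Of 8 lactate and pyruvate carriers, 4 were higher and 3 lower, with Slc5a12 at -1.81, Slc16a1 at -1.81 and Slc16a7 at 0.86. Of 7 glucose carriers 1 was higher and 5 were lower, with the insulin-responsive carrier Slc2a4 higher and Slc5a2 at -1.56 and Slc2a3 at -1.38. Among 10 glycogen genes 3 were higher and 1 lower, led by the muscle phosphorylase Pygm (4.29), Gbe1 (1.53) and Pygl (1.04). Of 7 hypoxia factor genes 4 were lower, among them Egln3 (-1.45), Hif1a (-1.12) and Arnt (-0.46), and of 6 pentose phosphate genes tested Rpe (0.47) and G6pdx (0.23) were higher.

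Between GFP-positive and GFP-negative cells, 8 of 34 genes tested were higher in GFP-positive cells and 9 were lower, by the quasi-likelihood test of edgeR with a Benjamini-Hochberg adjusted p under 0.05. Among all 15671 genes tested, 15.2% were higher and 17.3% lower. The higher genes were Hk1, Pfkm, Pfkp, Pgam2, Pkm, Ldhb, Pfkfb3 and Pdk1. The lower genes were Hk3, Pklr, G6pc, Fbp1, Fbp2, Pck1, Pcx, Pdk3 and Pdk4. The median log2 difference was 0.05 in the set and 0.02 among all genes. With the authors' RPKM values and limma the counts were 3 and 4, and the genes called were Hk1, Pgam2 and Pkm (higher) and G6pc, Fbp1, Pck1 and Pdk3 (lower). The RPKM headers name a first and a second experiment, which the RPKM fit did not use as a block.

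Of the 8 genes of the irreversible glycolysis steps 4 rose (Hk1, Pfkm, Pfkp and Pkm), 2 fell (Hk3 and Pklr), and Hk2 (log2 difference -0.89) and Pfkl (0.04) did not pass the test. Hk1 measured 190.2 and 189 CPM in the GFP-positive samples and 57.5 and 57.2 CPM in the GFP-negative ones, a 3.30-fold rise (log2 difference 1.72, SE 0.16, edgeR adjusted p = 0.000120). Pkm measured 178 and 219 CPM against 76.6 and 65.4 CPM and rose 2.80-fold (adjusted p = 0.000514). Pfkm rose 2.31-fold, from 33.7 and 22.9 CPM to 71.9 and 59.2 CPM (adjusted p = 0.00519). In all 3 genes the groups did not overlap. With 2 samples a group the same held for Aldoa, Tpi1 and Gapdh, which did not pass the test. Pfkp rose 1.79-fold, a call that was lost in 3 of 10 alternatives. Pgam2 measured 35.3 and 41.9 CPM against 3.30 and 5.76 CPM, the largest rise in the set at 8.54-fold (log2 difference 3.09, SE 0.32, adjusted p = 0.000182). Ldhb measured 656 and 634 CPM against 350.2 and 322 CPM and rose 1.92-fold (adjusted p = 0.00398), whereas Ldha, at 282 and 396 CPM against 470.3 and 449 CPM, did not pass the test (log2 difference -0.44, adjusted p = 0.138).

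Pfkfb3 rose 2.66-fold, from 62.5 and 42.9 CPM to 151 and 129.9 CPM (edgeR adjusted p = 0.00146). Pdk1 rose 2.62-fold, from 37.3 and 34.1 CPM to 105 and 82.2 CPM (adjusted p = 0.000879). In RPKM its log2 difference was 0.54, did not pass the test (limma adjusted p = 0.449), and the groups overlapped. The kinases Pdk3 and Pdk4 went the other way. Pdk3 measured 50.6 and 50.5 CPM in GFP-positive against 102 and 133 CPM in GFP-negative cells and fell by 1.22 on the log2 scale (adjusted p = 0.00151). Pdk4 fell by 0.88, a call that was lost in 2 of 10 alternatives, and Pdk2 had a log2 difference of 0.03 that did not pass the test.

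Of the 6 gluconeogenesis genes, 5 were lower in GFP-positive cells. Pck1 measured 185 and 169 CPM against 1186 and 1582 CPM and fell by 2.97 on the log2 scale (SE 0.22, edgeR adjusted p = 5.71e-05). Fbp1 measured 75.0 and 58.0 CPM against 416 and 518 CPM and fell by 2.81 (SE 0.21, adjusted p = 6.10e-05). G6pc fell by 2.29, Fbp2 by 2.45 and Pcx by 1.39, and in CPM the groups of each did not overlap. In RPKM the groups of Fbp2 overlapped (log2 difference -0.67, limma adjusted p = 0.646), and Pcx had an adjusted p of 0.0698. Pck2 had a log2 difference of 0.36 that did not pass the test. All 6 proximal tubule markers fell as well, from sums of 15157 to 15840.0 CPM in the GFP-negative to 1810.0 to 2846 CPM in the GFP-positive samples, and all 5 leukocyte markers fell. Hk3 fell by 3.62, from 3.07 and 0.585 CPM to 0.054 and 0.237 CPM, and lost its call in 4 of 8 alternatives. Pklr fell by 2.17 (adjusted p = 0.00371). The part of proximal tubule cells and leukocytes in these falls was not tested.

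Read counts of some members in the GFP samples are uncertain, since near-identical copies may have split or lost their reads, which was not tested. Gapdh had 283 to 570 reads per sample and Pgam1 267 to 385, and Eno1, with 4 to 21 reads, was left out of the main test. In the authors' table Eno1 had 43.9 to 65.1 RPKM, with a log2 difference of -0.15 (limma adjusted p = 0.767). The retrocopy Eno1b had 689 to 1379 reads in these samples but at most 0.10 TPM in the c-Kit and DBA samples, where Eno1 had 786 to 870.2 TPM. In GENCODE M21, 17 of the 35 genes overlap another gene, among them Tpi1, Gapdh, Aldoa, Hk1, Pfkm and Pfkp. The GFP counts are labelled as RefSeq, whose overlaps may differ. Whether counting used the strand is not stated, so reads of such pairs cannot be told apart. Ldha, Ldhb, Pgam2, Pdk4, Pck1, Fbp1 and G6pc have no overlapping gene in GENCODE M21.

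Companion lists in the GFP samples showed 2 glucose carriers higher and 4 lower of 7, with Slc2a5 at -3.02, Slc2a3 at -2.94 and Slc2a2 at -2.13 on the log2 scale. Of 8 lactate and pyruvate carriers 1 was higher and 4 were lower, with Slc5a8 at -3.21, Slc16a1 at -1.92 and Slc5a12, also a proximal tubule marker, at -1.67. Glycogen genes were higher in 4 and lower in 2 of 10, led by Pygm (2.11), Pygb (1.84) and Pygl (1.48). Of 7 pyruvate dehydrogenase complex and phosphatase genes Pdp1 (0.86) and Dlat (0.53) were higher and Pdp2 (-1.15) lower. Of 7 hypoxia factor genes Hif1a (0.51) was higher and Egln3 (-2.26) and Epas1 (-0.83) lower, and Rpia (-1.79) was the 1 pentose phosphate gene called of 7.

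**Figure D4:**
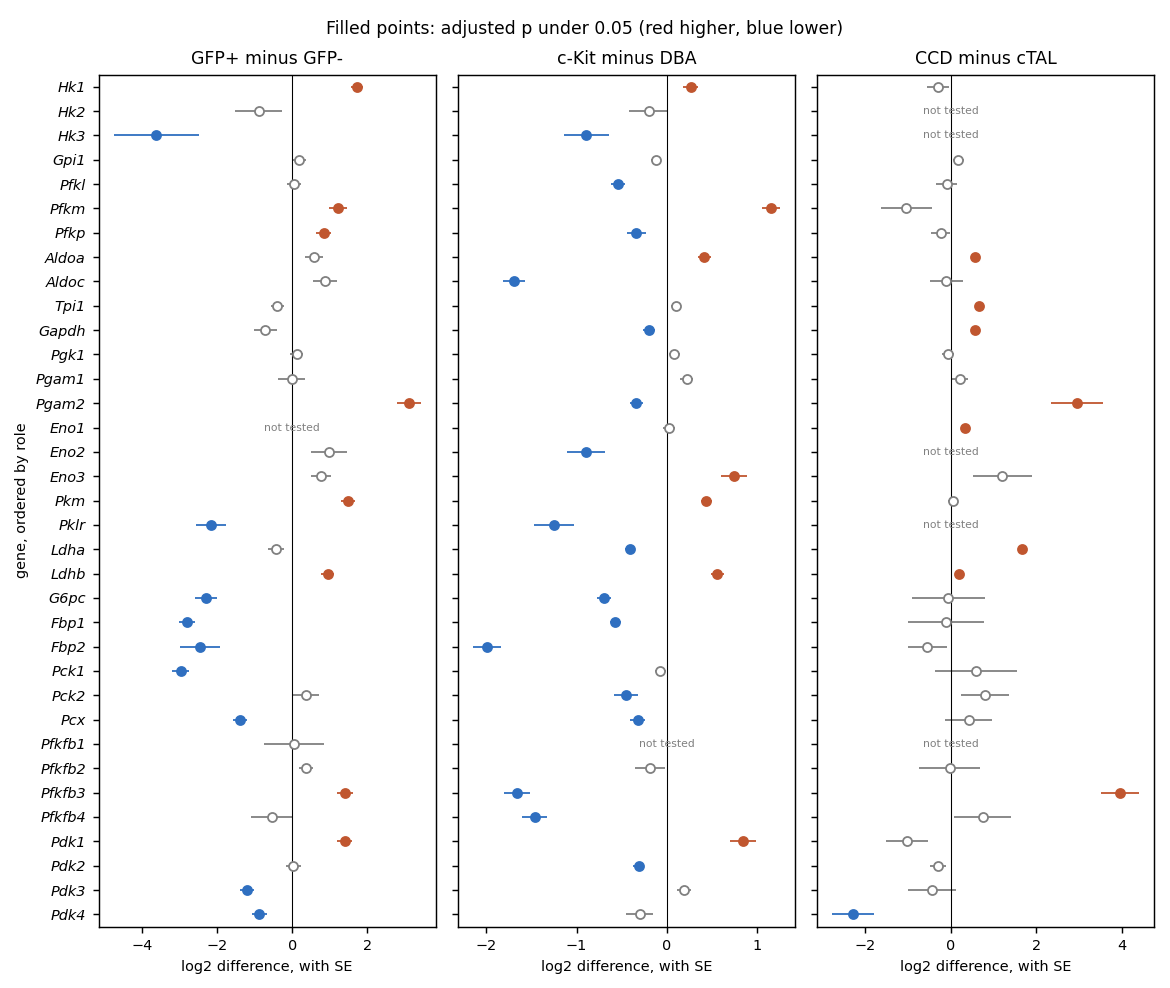
Log2 difference with SE of the 35 genes, ordered by role, in the 3 comparisons; the panels have separate axes. Filled red points were higher and filled blue points lower at an adjusted p under 0.05, and open points did not pass the test. The gluconeogenesis rows hold 5 filled blue points in the GFP and 5 in the c-Kit panel and none in the CCD panel.

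Set side by side, the comparisons called 3 genes each time, Ldhb, Pgam2 and Pfkfb3. Ldhb was higher in the GFP-positive, the c-Kit and the CCD samples. In the CCD its log2 difference of 0.20 was below the median of all genes, 0.31. Its GFP call was lost in RPKM (limma adjusted p = 0.246). Pgam2 and Pfkfb3 were higher in the GFP-positive and CCD samples and lower in c-Kit than in DBA samples. In 15 further genes 2 comparisons gave a call, in 11 genes 1 did, and in 6 genes none did (Hk2, Gpi1, Pgk1, Pgam1, Pfkfb1 and Pfkfb2). Not every gene was tested each time. Hk2, Hk3, Eno2, Pklr and Pfkfb1 were not tested between the tubules, Pfkfb1 not between c-Kit and DBA, and Eno1 not in the main GFP fit. Hk1, Pfkm, Pkm and Pdk1 were higher in both GFP-positive and c-Kit samples, and Pfkp was higher in the former and lower in the latter.

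The share that each form took of its enzyme's summed level gave a view that does not depend on the scaling of the sample. Ldhb made up 81.0% ± 2.15 (SD, n = 11) of the lactate dehydrogenase TPM in the CCD and 92.2% ± 1.43 (SD, n = 8) in the cTAL. The highest CCD, at 84.4%, was below the lowest cTAL, at 90.0%. The share was 85.0% and 85.1% in the c-Kit and 73.7% and 75.0% in the DBA samples, and in RPKM 65.0% and 76.2% in the GFP-positive and 48.7% and 50.3% in the GFP-negative ones. Over the summed single cells it was 94.2% in type B, 92.7% in type A, 91.0% in principal, 85.6% in non-epithelial and 84.7% in proximal tubule cells. Pgam2 made up 92.5% ± 1.84 (SD, n = 11) of phosphoglycerate mutase in the CCD and 65.7% ± 27.4 (SD, n = 8) in the cTAL, where it ran from 2.92% to 91.9%. Pfkm made up 31.4% ± 0.43 (SD, n = 2) of phosphofructokinase in c-Kit and 13.2% ± 1.88 (SD, n = 2) in DBA samples. Hk1 made up 99.9% of hexokinase in the CCD, 97.0% and 98.2% in the c-Kit and 94.6% and 95.4% in the DBA samples, and 13.9% over the non-epithelial cells.

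**Figure D5:**
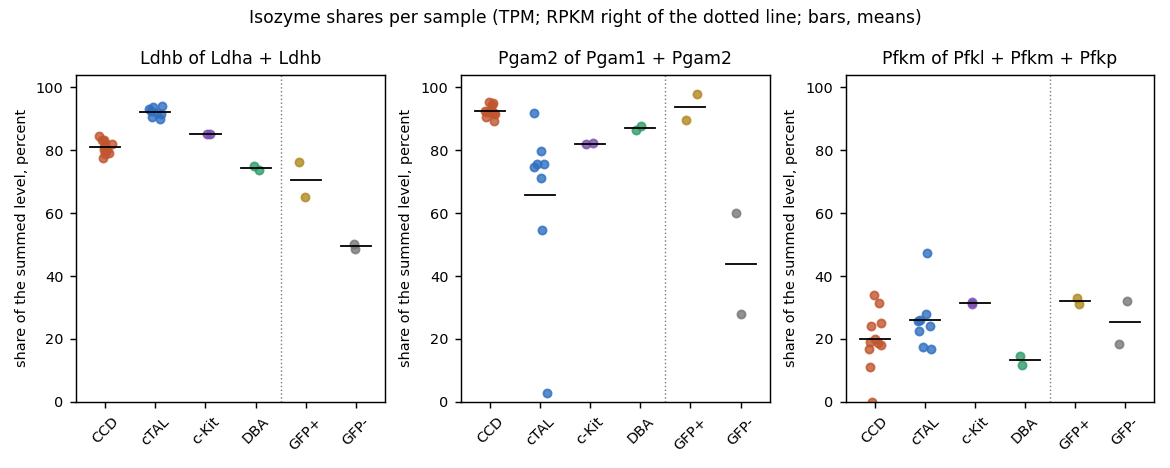
Share of Ldhb, Pgam2 and Pfkm in the summed level of their enzyme, in percent, for each sample (points) with the mean of the group (bars). The number of samples is 11 CCD, 8 cTAL and 2 in each sorted group; groups right of the dotted line are in RPKM and the others in TPM. The Ldhb share is 77.6% to 84.4% in the CCD and 90.0% to 94.0% in the cTAL.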

How the data were processed

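Symbols of 35 genes were looked up in all deposited tables. Members, companion lists and markers were chosen with earlier results of these data known. Single-cell, c-Kit, DBA and tubule values were deposited as TPM. The GFP samples were deposited as read counts per gene, with a separate table of RPKM by the authors. STAR 2.5.1b, RSEM 1.2.31, Seurat and the build GRCm38.p5 are named, with no role or order, per the submitters' processing notes. Cell types are those of the submitters' labels, and the sort of a cell was not tied to its column. The strand setting of the counting was not found in the labels or headers.

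GFP counts were tested with edgeR 4.0.16 (TMM factors, quasi-likelihood test, rows naming no gene left out of library sizes; 66.5% to 72.7% of reads were in no feature). TPM were tested with limma 3.58.1 (R 4.3.3) on log2(TPM + 1) with a variance trend, leaving out genes that averaged under 1 TPM in the samples of the fit. P-values were adjusted by Benjamini-Hochberg over all genes tested, with a threshold of 0.05. A fold on the log2(TPM + 1) scale understates the change of low genes. Each cell type was treated as 1 sample, a gene was called detected at 1 TPM, and shares carry exact Clopper-Pearson 95% intervals. For a share of 0 the limit is 3 cells of the number counted. The fitting script was tested on simulated data. Alternatives covered normalization, filters, pseudocounts, DESeq2 1.42.0, RPKM, sample weights, blocks and left-out samples. Named genes are all 35 members, and from each companion list up to 3 called genes with the largest log2 difference. Promoter windows are from RefSeq tables of GRCm38.p6 and gene positions from GENCODE M21.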

Additional observations from a re-analysis of the deposited data

Results flagged for a closer look

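In the 8 cTAL, 10 of the 30 genes examined had 1 tubule whose gap to the nearest other tubule divided by the whole range was above Dixon's 95% critical value. Chance flags about 1 in 20 groups of normally distributed values. The values here were TPM with no log, and some ranges start at or near 0, so the chance rate is not known. The genes are also measured in the same 8 tubules. The cTAL of m3 was highest for Hk1, at 403.22 TPM against 255.02 in the next tubule, for Aldoc, at 203.72 against 102.85, and for Eno1, at 1143.75 against 967.25. The cTAL of m2 was highest for Pgam2, at 614.87 against 261.47 TPM, and for Pdk4, at 242.07 against 108.63 TPM. The first cTAL of m7, which had the highest sum of proximal tubule markers among the cTAL, was highest for G6pc, at 43.74 against 10.03 TPM, and for Pck1, at 56.97 against 26.9 TPM. Fbp2 was highest in the cTAL of m1, at 17.46 against 1.7 TPM, and Pfkfb3 in that of m4, at 9.31 against 3.01 TPM. Pdk2 was lowest in the first cTAL of m6, at 147.3 against 258.84 TPM.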

How the results depend on the processing

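With RPKM and limma the GFP comparison gave 3 higher and 4 lower genes. Leaving out 1 sample gave 7 to 9 higher and 8 to 9 lower. Between c-Kit and DBA 11 genes were lower without a filter and 11 without the variance trend. Leaving out 1 sample gave 4 to 7 higher and 8 to 14 lower, with 8 lower without DBA replicate 1 and 4 higher and 11 lower without DBA replicate 2. In the CCD 2 genes were lower under quantile normalization and 2 under sample weights. Principal cells led for 7 genes by the median and 8 by the share of cells, and non-epithelial cells for 5 by the mean of log2(TPM + 1) and 5 by the share of cells. In other results the counts stayed within 1.5 times. At 10 TPM in place of 1, 34 of 175 shares of cells left their interval. The causes were not tested.

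With the replicate number as a block the GFP comparison gave 9 higher and 8 lower genes, with Aldoc gained and Hk3 lost (adjusted p = 0.0551 by edgeR). The c-Kit comparison gave 7 and 17, and the tubules with the m number as a block 8 and 1. Same-numbered deviations correlated at 0.143 in the GFP counts, 0.049 in RPKM, 0.026 in c-Kit and DBA, and at a median of 0.036 in CCD and cTAL of 1 m number.

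The direction turned in 11 GFP, 4 c-Kit and 21 CCD values, 0 of them of genes that passed the test. All are log2 differences. Leaving out 1 GFP sample gave Hk2 -1.46 to 0.070, Pfkl -0.083 to 0.170, Pgam1 -0.39 to 0.47, Pfkfb1 -0.143 to 0.289, Pfkfb4 -0.94 to 0.022 and Pdk2 -0.19 to 0.27. Pgam1 was 0.021 with the block, and Pdk2 was -0.00058 at a mean of at least 50 counts. In c-Kit quantile normalization gave Tpi1 -0.10, Eno1 -0.069 and Pfkfb2 0.081, and Eno1 was -0.054 to 0.093 with 1 sample left out. In the CCD sample weights gave Hk1 0.046, Pfkl 0.098, Pfkfb2 0.30 and Pdk3 0.049. Without the CCD of m2 Pfkl was 0.012, G6pc 0.11, Pfkfb2 0.20 and Pdk3 0.028. Means per m number gave Aldoc 0.16, Fbp1 0.16 and Pfkfb2 0.29. Without the tubules of most proximal tubule markers Aldoc was 0.061 and G6pc 0.098, and without the cTAL of m3 0.12 and 0.11. Pkm was -0.087 under quantile normalization. A pseudocount of 0.1 gave G6pc 0.013 and Fbp1 0.070, a pseudocount of 5 gave Pfkfb2 0.0098, and the m number block gave G6pc 0.028 and Fbp1 0.26. The settings that leave out named tubules, use the m number or use the Cpa3 level of a cell were chosen after seeing the data.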
